A study of Mus musculus with 12 samples.

Results

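The interferon gamma GTPases and Irf1 are 10 genes that macrophages switch on in response to interferon gamma, and they were taken by symbol from the 24346 genes measured. They comprised 5 guanylate-binding protein genes (Gbp2, Gbp2b, Gbp3, Gbp5 and Gbp7), 4 immunity-related GTPase genes (Igtp, Irgm1, Irgm2 and Iigp1) and the transcription factor gene Irf1. All 10 were present and passed the filter of at least 1 FPKM (fragments mapped to a gene, scaled to its length and to the library's total) in at least 3 libraries, as did 11808 genes in all. Of the 10, 8 reached 1 FPKM in every library. Gbp2b and Gbp5 fell below it in some or all B16F10 libraries.

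RNA came from macrophages sorted out of tumours in mice with an Arg1-RFP reporter, in which red fluorescence reads out arginase 1. The tumours were B16F10, a mouse melanoma line, or MC38, a mouse colon adenocarcinoma line. Sorted cells carried CD11b, F4/80, MHCII and CD45 and were negative for CD90.2, B220, NK1.1, Ly6G and Ly6C, and RFP+ and RFP- cells were collected apart. This gave 4 groups of 3 libraries, namely B16F10 RFP+, B16F10 RFP-, MC38 RFP+ and MC38 RFP-. All 4 groups share the reporter, no group came from mice without a tumour, and the labels give no further treatment and no age. Library numbers in the titles were 12, 11 and 3 for B16F10 and 1, 2 and 3 for MC38, each present in both gates. Although 3 mice are named for the design, which mouse gave which library is not labelled, so p-values measure the spread between libraries, which may be technical.

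Interferon gamma binds the receptor chains encoded by Ifngr1 and Ifngr2, and the signal runs through JAK kinases to the nucleus. It acts there at the gamma-activated site (GAS), among others in the promoter of Irf1, and the IRF1 protein in turn binds the interferon-stimulated response element (ISRE) of many targets. Guanylate-binding proteins and immunity-related GTPases are large GTPases that gather on the vacuoles of intracellular microbes and help to break them open. In tumours, high levels of these transcripts in macrophages are commonly used as a read-out of interferon exposure.

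The GBP genes lie side by side on chromosome 3 (GRCm38), all on the plus strand, in the order Gbp5, Gbp7, Gbp3, Gbp2b and Gbp2, from 142493978 to 142638008. Irgm1 (48861968 to 48871683, minus strand), Irf1 (53770014 to 53778374, plus), Igtp (58199556 to 58207591, plus) and Irgm2 (58199618 to 58222782, plus) lie on chromosome 11. In the GENCODE annotation the Irgm2 gene model overlaps Igtp over 7974 bases on the same strand, and the GBP genes are close paralogs. How reads shared by such genes were divided is not given in the sources used here, so the split between Igtp and Irgm2, and among GBP genes, is uncertain.

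RefSeq promoter windows (GRCm38.p6, 250 bases before to 50 after a start) were at hand for 9 of the 10 genes, all but Iigp1. They were searched on both strands for the ISRE core GAAANNGAAA (TTTCNNTTTC on the other strand) and for the GAS core TTCNNNGAA, which reads the same on both strands. All 8 GTPase genes with a window held an ISRE match, against 3.99% of all 27025 genes with a window. Irf1 held none and had a GAS match, as did Gbp5, Gbp7, Igtp and Irgm2, against 9.55% of all genes with a window. Gbp3 and Irf1 had a second window, without a match to either core. The stretches around these matches are shown 5′ to 3′ because they are what the 8 GTPase genes share and Irf1 does not, with the ISRE match in capitals, or for Irf1 the GAS match.
Gbp2 (chr3:142620579-142620638, plus strand): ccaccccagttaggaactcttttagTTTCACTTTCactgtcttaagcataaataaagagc
Gbp2b (chr3:142594685-142594744, plus strand): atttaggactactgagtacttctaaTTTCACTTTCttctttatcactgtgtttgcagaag
Gbp3 (chr3:142559974-142560039, plus strand): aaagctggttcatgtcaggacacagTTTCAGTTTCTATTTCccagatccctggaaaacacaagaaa
Gbp5 (chr3:142496744-142496803, plus strand): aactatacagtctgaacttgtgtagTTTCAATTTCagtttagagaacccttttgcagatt
Gbp7 (chr3:142530258-142530317, plus strand): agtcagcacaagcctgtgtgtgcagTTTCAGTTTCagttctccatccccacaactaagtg
Igtp (chr11:58199497-58199555, plus strand): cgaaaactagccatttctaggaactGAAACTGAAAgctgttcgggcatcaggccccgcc
Irgm2 (chr11:58214888-58214947, plus strand): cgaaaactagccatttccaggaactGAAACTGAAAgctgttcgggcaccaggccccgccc
Irgm1 (chr11:48871421-48871475, minus strand): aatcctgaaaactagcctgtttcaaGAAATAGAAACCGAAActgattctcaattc
Irf1 (chr11:53769899-53769957, plus strand): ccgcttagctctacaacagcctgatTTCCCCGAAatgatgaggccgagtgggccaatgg

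The ISRE match began 59 bases before the start in Gbp2, 137 in Gbp2b, 165 in Gbp5, 53 in Gbp7, 34 in Igtp and 64 in Irgm2. In Gbp3 and Irgm1 a pair of matches overlapped, the first beginning 45 and 30 bases before the start. In the 4 genes with both kinds of match, the ISRE and GAS matches did not overlap. The stretches of Igtp and Irgm2 were equal at 57 of 59 bases. A match says only that these letters occur in the window.

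**Figure D1:**
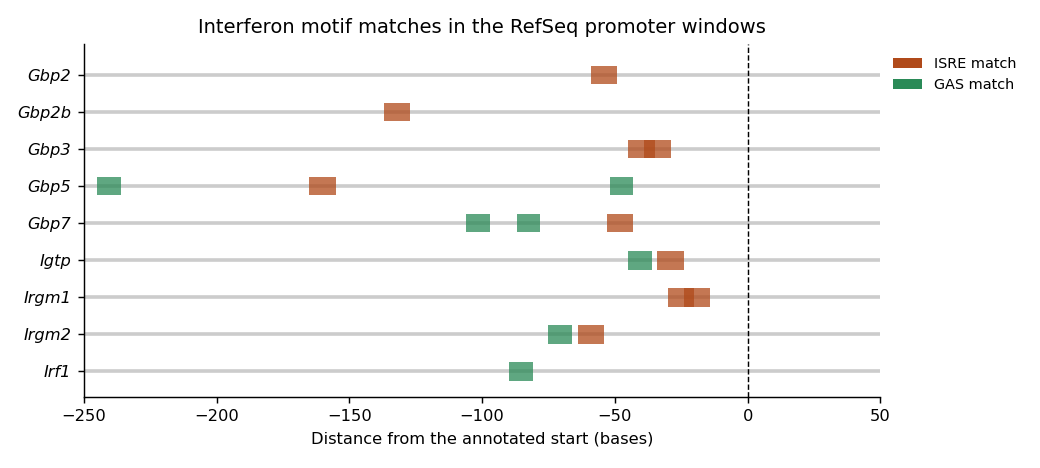
Positions of ISRE core matches (brown) and GAS core matches (green) in bases from the annotated start, in the RefSeq windows of 9 genes (grey lines, windows from 250 bases before to 50 bases after the start). The 8 GTPase genes each carry an ISRE match, all of them before the start, and Irf1 carries a GAS match alone.

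The libraries differed in ways that bear on every level given here. In MC38 the 16 macrophage core genes (such as Csf1r, Adgre1 and C1qa) had a geometric mean of 754 to 908 FPKM per library, and in B16F10 of 133 to 268 FPKM, with all 16 at 1 FPKM or more in every library. The 8 melanocytic genes summed to 8146 to 10711 FPKM in B16F10 libraries and to 10.9 to 19.2 FPKM in MC38 libraries, and Pmel alone reached 1622 to 3057 FPKM in B16F10. The step between low values shows B16F10 libraries to be shallower: a single read added 3.02 to 3.62 times the FPKM that it added in MC38 RFP- number 2, the deepest library, and 1 to 1.18 times in MC38. Low values thus carry more counting error in B16F10. Total FPKM was 614875 to 815591, the highest in B16F10 RFP- number 12, which also had the most genes at 0 (10597, against 8479 to 10081 in the others). Without it, all 10 genes were still called lower in B16F10 and none was called between the gates. Arg1 followed the gate, at 394 to 916 FPKM in RFP+ libraries and 40.6 to 125 FPKM in RFP- libraries.

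The first comparison was between the tumours, within each gate. All 10 genes were lower in B16F10 than in MC38 macrophages in RFP+ cells and in RFP- cells, in limma on log2(FPKM + 1) with p-values adjusted over all genes. For 10 of 10 genes, all 6 B16F10 libraries lay below all 6 MC38 libraries, where 17.5% of all genes tested did so. The share of all genes called lower was 20.0% in RFP+ cells, 21.9% in RFP- cells and 25.4% over both gates. Their median log2 difference was -3.00 in RFP+ and -3.02 in RFP- cells, where the median of all genes tested was 0.23 in each. Differences ran from -4.57 (Gbp2b) to -1.93 (Irgm1) in RFP+ cells and from -5.23 (Gbp2b) to -2.11 (Irgm1) in RFP- cells, with limma adjusted p of at most 4.14e-05. In bulk samples, fewer cells of a type and less RNA per cell cannot be told apart.

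**Figure D2:**
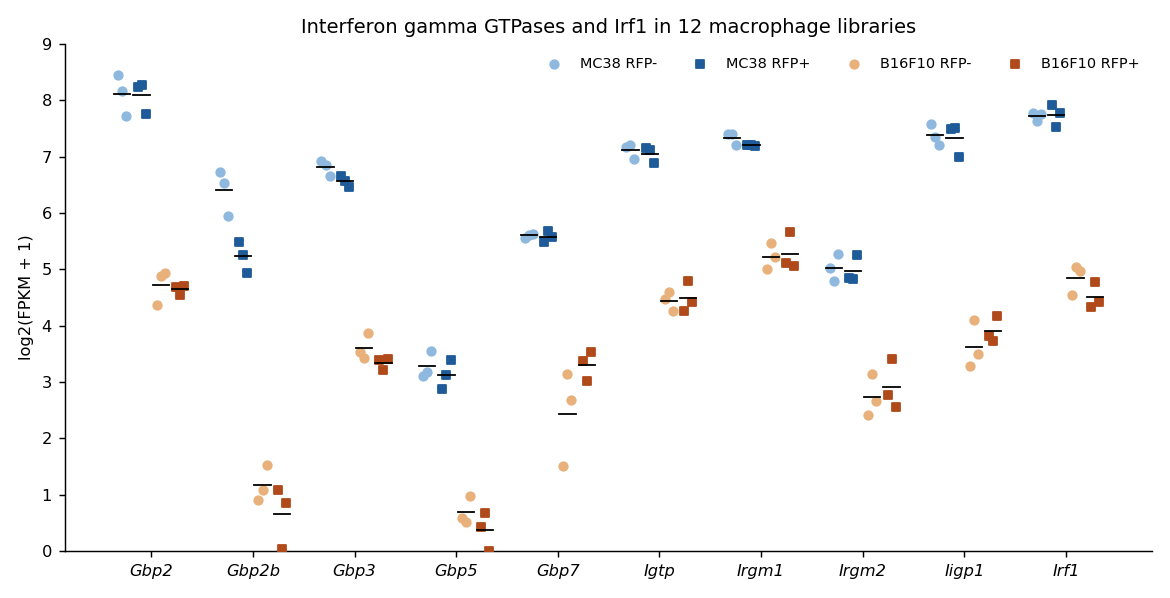
Level of each gene as log2(FPKM + 1) in the 12 libraries, 3 per group, with MC38 in blue and B16F10 in brown, circles for RFP- and squares for RFP+, and a black bar at each group mean. For each of the 10 genes the 6 B16F10 libraries lie below the 6 MC38 libraries, while the gates of a tumour mostly overlap.

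Gbp2 was the most abundant of the 10 in MC38. Its levels there were 299.7, 309.5 and 216 FPKM in RFP+ libraries 1, 2 and 3 and 348, 287 and 210.3 FPKM in the RFP- libraries of the same numbers. In B16F10 RFP+ libraries 12, 11 and 3 it stood at 24.7, 22.4 and 25.2 FPKM, and in the RFP- libraries at 19.5, 28.5 and 29.7 FPKM. The lowest MC38 library was thus above the highest B16F10 library, in both gates. The log2 difference, B16F10 minus MC38, was -3.44 ± 0.21 (SE, 10.9-fold lower, limma adjusted p = 3.09e-08) in RFP+ and -3.39 ± 0.21 (adjusted p = 3.48e-08) in RFP- cells. Folds are ratios of FPKM + 1, which understates those of genes near 1 FPKM.

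Gbp2b, the gene earlier called Gbp1, had the largest tumour difference of the 10. RFP- cells of MC38 had 105, 91.7 and 60.3 FPKM and RFP+ cells 44.0, 37.4 and 29.6 FPKM in libraries 1, 2 and 3. In B16F10 it was close to the limit of the data, at 1.12, 0.0275 and 0.793 FPKM in RFP+ and 0.872, 1.11 and 1.88 FPKM in RFP- libraries 12, 11 and 3. Gbp2b thus went from a well-expressed gene in MC38 to one of the lowest of the 10 in B16F10. It was 23.8-fold lower in RFP+ cells (log2 -4.57 ± 0.29, limma adjusted p = 5.07e-08) and 37.6-fold lower in RFP- cells (-5.23 ± 0.29, adjusted p = 1.44e-08).

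Gbp3 lay between 87.1 and 120 FPKM in MC38 and between 8.24 and 13.6 FPKM in B16F10. Its log2 difference was -3.23 ± 0.15 in RFP+ and -3.21 ± 0.15 in RFP- cells (limma adjusted p = 2.9e-09 and 2.88e-09). Gbp5, whose product is known to promote activation of the NLRP3 inflammasome, was the lowest of the 10 in both tumours. It reached 6.38 to 10.7 FPKM in MC38, was listed at 0 in B16F10 RFP+ number 3 and stood at 0.338 to 0.97 FPKM in the other B16F10 libraries. Its log2 differences were -2.76 ± 0.23 and -2.59 ± 0.23. Gbp7 had 43.6, 50.3 and 46.5 FPKM in MC38 RFP+ and 46.3, 47.9 and 48.5 FPKM in MC38 RFP- libraries, the narrowest spread of the GBP genes in that tumour relative to the mean. In B16F10 it had 9.34, 7.07 and 10.6 FPKM in RFP+ and 1.84, 7.82 and 5.37 FPKM in RFP- libraries 12, 11 and 3, with number 12 of the RFP- gate far below the rest. The log2 difference of Gbp7 was -2.27 ± 0.31 in RFP+ and -3.16 ± 0.31 in RFP- cells.

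The Irgm genes encode regulators that keep the other GTPases off the membranes of the cell itself, and Igtp is also known as Irgm3. Irgm1 differed least between the tumours. It had 147, 147 and 145 FPKM in RFP+ and 168, 168 and 146 FPKM in RFP- libraries 1, 2 and 3 of MC38. In B16F10 libraries 12, 11 and 3 it had 33.5, 49.4 and 32.1 FPKM in RFP+ and 30.9, 43.2 and 36.1 FPKM in RFP- cells. Irgm1 was the most abundant of the 10 in B16F10, where Gbp2 and Irf1 came next, and only the fourth in MC38. Its log2 difference was -1.93 ± 0.17 in RFP+ and -2.11 ± 0.17 in RFP- cells (limma adjusted p = 9.14e-07 and 3.82e-07). Irgm2 had 26.6 to 37.4 FPKM in MC38 and 4.30 to 9.63 FPKM in B16F10, a log2 difference of -2.07 ± 0.25 and -2.29 ± 0.25 in RFP+ and RFP- cells. Igtp had 117 to 146 FPKM in MC38 and 18.04 to 26.8 FPKM in B16F10, with log2 differences of -2.56 ± 0.16 and -2.67 ± 0.16.

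Iigp1 encodes an effector GTPase, also called Irga6, that loads onto microbial vacuoles. Its levels in MC38 were 178, 182 and 126 FPKM in RFP+ and 190.1, 162 and 146 FPKM in RFP- libraries 1, 2 and 3. In B16F10 libraries 12, 11 and 3 they were 13.0, 12.2 and 17.0 FPKM in RFP+ and 8.69, 16.1 and 10.2 FPKM in RFP- cells, with no overlap between tumours. Iigp1 was 10.8-fold lower in B16F10 RFP+ cells (log2 -3.43 ± 0.22, limma adjusted p = 5.07e-08) and 13.5-fold lower in RFP- cells (-3.76 ± 0.22, adjusted p = 2.01e-08).

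Irf1, the transcription factor of the set, was the second most abundant of the 10 in both tumours by its mean. That mean was 212 ± 19.9 FPKM in MC38 and 25.1 ± 5.28 FPKM in B16F10 (SD over 6 libraries, both gates of 3 title numbers). In B16F10 Gbp2 was close (25.01 ± 3.76 FPKM), above Irf1 in RFP+ number 12 and below it in RFP- number 12. In MC38 Irf1 had 241, 184 and 217 FPKM in RFP+ and 219, 197 and 217 FPKM in RFP- libraries 1, 2 and 3. In B16F10 libraries 12, 11 and 3 it had 19.2, 26.2 and 20.5 FPKM in RFP+ and 22.3, 32.0 and 30.2 FPKM in RFP- cells. The tumours did not overlap. Irf1 was 9.38-fold lower in B16F10 RFP+ cells (log2 -3.23 ± 0.17, limma adjusted p = 8.13e-09) and 7.34-fold lower in RFP- cells (-2.88 ± 0.17, adjusted p = 1.96e-08).

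Macrophage core genes were themselves lower in B16F10 libraries, and melanocytic genes higher, so each library was also scaled to the geometric mean of its 16 core genes. These 16 did not fall equally. Cd68 overlapped between the tumours (519 to 1329 FPKM in B16F10, 1084 to 1423 FPKM in MC38), while Ptprc had 15.9 to 33.8 and 183 to 229 FPKM. Differences after this scaling thus depend on which genes are averaged, which the SEs do not carry. On that scale the median of all genes moved to 1.84 in RFP+ and 1.86 in RFP- cells. The members called lower were 6 of 10 in RFP+ cells, 7 in RFP- cells and 8 over both gates, where 2.45%, 2.59% and 3.33% of all 12184 genes tested were called lower. Their median log2 difference was -1.31 in RFP+ and -1.28 in RFP- cells. Gbp2b kept the largest difference, 9.81-fold lower in RFP+ and 12.3-fold lower in RFP- cells (log2 -3.29 ± 0.38 and -3.62 ± 0.38, limma adjusted p = 1.41e-06 and 4.34e-07). Gbp2 (-1.50 ± 0.34 and -1.41 ± 0.34), Gbp3 (-1.34 ± 0.25 and -1.28 ± 0.25), Gbp5 (-1.60 ± 0.33 and -1.29 ± 0.33), Iigp1 (-1.51 ± 0.37 and -1.82 ± 0.37) and Irf1 (-1.29 ± 0.34 and -0.90 ± 0.34) also passed in both gates.

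Irgm1 did not, with a log2 difference of 0.016 ± 0.35 in RFP+ and -0.13 ± 0.35 in RFP- cells (limma adjusted p = 0.966 and 0.728), so its sign turned in RFP+ cells. Irgm2 did not pass either, at -0.23 ± 0.42 and -0.43 ± 0.42 (limma adjusted p = 0.602 and 0.333). Igtp had -0.62 ± 0.34 and -0.70 ± 0.34 (limma adjusted p = 0.093 and 0.0624). It passed over both gates alone in this fit (-0.66 ± 0.24, adjusted p = 0.0154), which does not pair the gates. With the title number as a block, Igtp also passed in RFP- cells (limma adjusted p = 0.0341). Gbp7 passed in RFP- cells (-1.33 ± 0.45, limma adjusted p = 0.0118) and not in RFP+ cells (-0.40 ± 0.45, adjusted p = 0.403), where the difference between gates was 0.93 ± 0.63 (adjusted p = 1). The 3 Irgm genes thus had the differences nearest to 0 over both gates on this scale. Whether RNA of tumour cells takes part in these levels was not tested.

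The balance of calls over all genes depended on the scaling. As deposited, 4159 genes were higher and 2364 lower in B16F10 RFP+ cells, 4467 and 2584 in RFP- cells, and 5200 and 2998 over both gates. After quantile normalization these were 3365 and 3014, 3564 and 3291, and 4208 and 3809, and after core scaling 10350 and 298, 10150 and 315, and 10790 and 406. Quantile normalization left all 10 members lower in each.

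**Figure D3:**
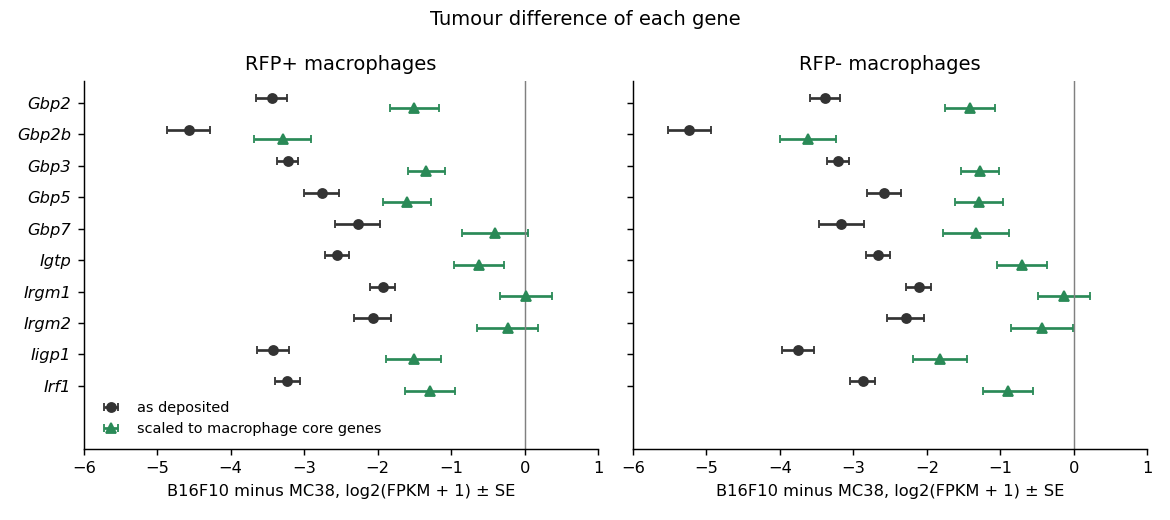
Difference B16F10 minus MC38 in log2(FPKM + 1) for each gene in RFP+ (left) and RFP- cells (right), as deposited (black circles) and after scaling to the macrophage core genes (green triangles), with bars of 1 SE from the model over 12 libraries. As deposited all 10 genes lie between -5.23 and -1.93, and on the core scale Irgm1 and Irgm2 lie within about 1 SE of 0.

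Ratios within a library do not depend on how libraries are scaled to each other, and so each gene was also set against Irgm1. Relative to Irgm1, 7 of the other 9 genes (Gbp2, Gbp2b, Gbp3, Gbp5, Igtp, Iigp1 and Irf1) were lower in all 6 B16F10 libraries than in any MC38 library, where 1.69% of all genes were. Irgm1 had the smallest tumour difference of the 10, which fixes the direction of these ratios, so they are given as a description. Gbp2 was 1.44 to 2.11 times Irgm1 in MC38 and 0.454 to 0.821 times in B16F10. Iigp1 was 0.867 to 1.24 times Irgm1 in MC38 and 0.247 to 0.53 times in B16F10. For Irf1 the ratio was 1.17 to 1.64 in MC38 and 0.531 to 0.837 in B16F10. For Gbp7 (0.275 to 0.343 in MC38, 0.0595 to 0.329 in B16F10) and Irgm2 (0.158 to 0.256 and 0.139 to 0.195) the ratios overlapped. Irgm1 was chosen after its values were seen.

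Upstream of these genes, Ifng itself, which T and NK cells mainly make, was at most 0.546 FPKM in MC38 and 0.176 FPKM in B16F10. It was listed at 0 in libraries of both tumours, among them all 3 B16F10 RFP- libraries. As cells with CD90.2 or NK1.1 were sorted out, Ifng in the whole tumour was not measured. The receptor gene Ifngr1 had 231 to 281 FPKM in MC38 and 47.7 to 86.2 FPKM in B16F10 (log2 -2.0 ± 0.18 in RFP+ and -2.04 ± 0.18 in RFP- cells). Ifngr2 had 107 to 136 FPKM and 52.1 to 66.0 FPKM (log2 -1.04 ± 0.13 and -1.15 ± 0.13). Both fell as deposited (limma adjusted p from 1.12e-06 to 2.15e-05). On the core scale Ifngr1 was at -0.044 ± 0.27 and -0.051 ± 0.27 (limma adjusted p = 0.884 and 0.864), and Ifngr2 at 0.91 ± 0.23 and 0.83 ± 0.23 (adjusted p = 0.00184 and 0.00371). On that scale 84.9% of all genes in RFP+ and 83.3% in RFP- cells were called higher, with medians of 1.84 and 1.86, so Ifngr2 lay below the typical gene.

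Of 10 signal transduction genes, 10 fell in both gates as deposited, with a median log2 of -1.66 in RFP+ and -1.60 in RFP- cells. Over all genes, 20.0% were called lower in RFP+ and 21.9% in RFP- cells. Socs1, an inhibitor of JAK kinases that interferon gamma induces, had 14.4 to 22.9 FPKM in MC38 and 1.59 to 2.97 FPKM in B16F10 (log2 -2.69 ± 0.22 and -2.44 ± 0.22, limma adjusted p = 5.37e-07 and 1.15e-06). On the core scale 2 of the 10 were lower in both gates, Socs1 among them (-1.03 ± 0.28 and -0.74 ± 0.28, limma adjusted p = 0.0029 and 0.0218). Another 3 (Jak1, Stat3 and the phosphatase gene Ptpn2) were called higher in both gates, at 0.91 to 1.56, below the median of all genes on that scale. There, 2.45% of all genes were called lower in RFP+ and 2.59% in RFP- cells, and 84.9% and 83.3% higher.

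Relatives of the 10 genes and further targets were counted from lists that were set with earlier results of these data known. As deposited, 20.0% of all genes were called lower in RFP+ and 21.9% in RFP- cells. Of 5 other GBP genes tested, 4 fell in each gate (Gbp4, Gbp6, Gbp8 and Gbp9, median of the list -2.73 in RFP+ and -3.05 in RFP- cells), and Gbp4 had the largest difference, -3.28 ± 0.30 and -3.88 ± 0.30. Of 8 other immunity-related GTPase genes, 7 fell in each gate (median -2.21 and -2.41). Irgq, a more distant relative, was the exception at 0.42 ± 0.29 and 0.49 ± 0.29 (limma adjusted p = 0.229 and 0.161). Ifi47, which encodes the GTPase Irgd, had 141 to 154 FPKM in MC38 and 20.7 to 30.0 FPKM in B16F10.

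Of 18 other interferon gamma targets, 17 fell and 1 rose in each gate (median -2.28 and -2.21), where 20.0% and 21.9% of all genes were called lower. The chemokine genes Cxcl9 (58.2 to 102 FPKM in MC38, 3.31 to 9.89 FPKM in B16F10) and Cxcl10 (379 to 695 and 37.3 to 95.3 FPKM) were among the 17, and the stem cell antigen gene Ly6a had the largest fall (-4.46 ± 0.21 in RFP+ cells). The tryptophan tRNA synthetase gene Wars was the 1 that rose, by 0.69 ± 0.23 and 0.82 ± 0.23 (limma adjusted p = 0.0199 and 0.00737). On the core scale 8 of the 18 were lower and 2 higher in RFP+ cells, and 6 and 3 in RFP- cells, where 2.45% and 2.59% of all genes were lower and 84.9% and 83.3% higher. Of 24 type I interferon targets, 24 fell in each gate (median -2.36 and -2.88), and on the core scale 5 and 10 were lower and 0 higher.

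Markers of other cell types were read in the same libraries. T cell genes (10 of 12 in the tables) summed to 1.81 to 10.6 FPKM over all libraries, and Cd3e was at most 0.266 FPKM. NK cell genes summed to 1.60 to 4.90 FPKM in B16F10 and 15.5 to 35.1 FPKM in MC38, most of it Klrk1 (9.77 to 30.9 FPKM in MC38), while Ncr1 was at most 0.318 FPKM. B cell genes summed to 5.80 to 19.0 FPKM in B16F10 and 16.9 to 35.1 FPKM in MC38, there mostly Cd79b (16.2 to 33.9 FPKM). Dendritic cell genes summed to 13.7 to 53.8 FPKM and 27.1 to 86.5 FPKM, and fibroblast genes to 1.78 to 2.93 and 48.3 to 64.7 FPKM. Most of the MC38 fibroblast sum was Dcn (30.2 to 42.2 FPKM) and Col3a1 (9.96 to 27.8 FPKM). Col1a1 and Col1a2 were at most 0.162 and 0.0178 FPKM in MC38. Lum was higher in B16F10 (1.42 to 2.37 FPKM) than in MC38 (at most 0.792 FPKM). Neutrophil genes (5 of 6 in the tables) summed to 26.5 to 831 FPKM in B16F10 and 38.7 to 48.6 FPKM in MC38, there mostly Csf3r (30.8 to 41.8 FPKM). The part of these cells in the tumour difference was not tested.

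The second comparison asked whether the reporter gate set these genes apart within a tumour. None of the 10 passed in limma in either tumour, where 0.178% of all genes were called in B16F10 and 0.0254% in MC38. At an unadjusted p under 0.05, 1 of the 10 passed in each, Gbp7 in B16F10 and Gbp2b in MC38, where 9.82% and 3.35% of all genes did. With the title number as a block, which pairs the gates, 0 of 10 passed as well, against 1.36% and 0.440% of all genes. Unadjusted, 3 and 1 did with the block, against 18.4% and 6.09% of all genes. The median log2 difference, RFP+ minus RFP-, was -0.016 in B16F10 and -0.053 in MC38.

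In MC38, 9 of the 10 genes had a lower mean in RFP+ cells, though 8 of these 9 by at most 0.25 on the log2 scale. The median of all genes tested was 0.0017. Gbp2, Gbp7, Igtp, Irgm2 and Iigp1 changed sign in at least 1 of the 12 fits that left out 1 library, so their direction is not settled. Gbp2b stood out from the other genes. Its RFP+ libraries (29.6 to 44.0 FPKM, mean 37.0 ± 7.21, SD, n = 3) lay below the RFP- libraries (60.3 to 105 FPKM, mean 85.7 ± 23.0, SD, n = 3) without overlap, in 3 of 3 pairs. Gbp2b was the 1 of the 10 genes with no overlap between the gates of MC38, where 11.3% of all genes had none. The log2 difference was -1.17 ± 0.29 and did not pass in limma (adjusted p = 0.334), nor with the block (-1.17 ± 0.22, adjusted p = 0.0581). It passed with array weights (-1.18, adjusted p = 0.049), which called 0.500% of all genes, and with the block without the B16F10 number 12 pair (adjusted p = 0.00329), which called 1.29% and left the MC38 values themselves as they were. Leaving out 1 library at a time gave -1.40 to -1.01, none past the threshold. In the same comparison 7 of 7 dendritic cell markers tested had a lower mean in RFP+ cells (median -0.59, lowest -1.09, 0 past the threshold), and Xcr1, Clec9a and Batf3 did not overlap between the gates. Their part in the Gbp2b difference was not tested.

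Its neighbour Gbp3 moved the same way by less, at -0.25 ± 0.15 in MC38 and -0.27 ± 0.15 in B16F10 (limma adjusted p = 1 and 0.51). Gbp3 was lower in RFP+ cells in 3 of 3 pairs of each tumour. In B16F10 its gates did not overlap (8.24 to 9.65 against 9.68 to 13.6 FPKM), where 11.9% of all genes had no overlap. Gbp2, next to Gbp2b on the chromosome, had -0.021 ± 0.21 in MC38 and -0.077 ± 0.21 in B16F10.

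In B16F10, Gbp2b was at -0.51 ± 0.29 (limma adjusted p = 0.511, and 0.259 with the block). Without the number 12 pair, the block gave -0.86 for Gbp2b (limma adjusted p = 0.0349), the 1 gene of the 10 called in that fit, which called 1.41% of all genes. Gbp7 had the largest difference there, 0.87 ± 0.31 higher in RFP+ cells (limma adjusted p = 0.462, and 0.185 with the block), higher in 2 of 3 pairs. Without RFP- number 12, where Gbp7 was 1.84 FPKM, the difference was 0.40 (adjusted p = 0.88). Irf1 was at -0.34 ± 0.17 (limma adjusted p = 0.497, and 0.195 with the block), lower in RFP+ cells in 3 of 3 pairs. With array weights, which gave number 12 of the RFP- gate the least weight of the 12 libraries, Gbp7 (0.70, limma adjusted p = 0.0433) and Irf1 (-0.52, adjusted p = 0.04999) passed, as did 2.02% of all genes. The remaining genes of B16F10 had differences from -0.32 (Gbp5) to 0.28 (Iigp1).

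The gate effects of the tumours were compared directly as well. None of the 10 differed in limma (lowest adjusted p = 0.895), and 0% of all genes did, while 0 of the 10 had an unadjusted p under 0.05. The largest differences, B16F10 minus MC38, were 0.89 ± 0.44 for Gbp7 and 0.66 ± 0.41 for Gbp2b. For Iigp1 the value was 0.33 ± 0.31 and for Irf1 -0.35 ± 0.24. With 3 libraries a group the errors are large beside these values.

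**Figure D4:**
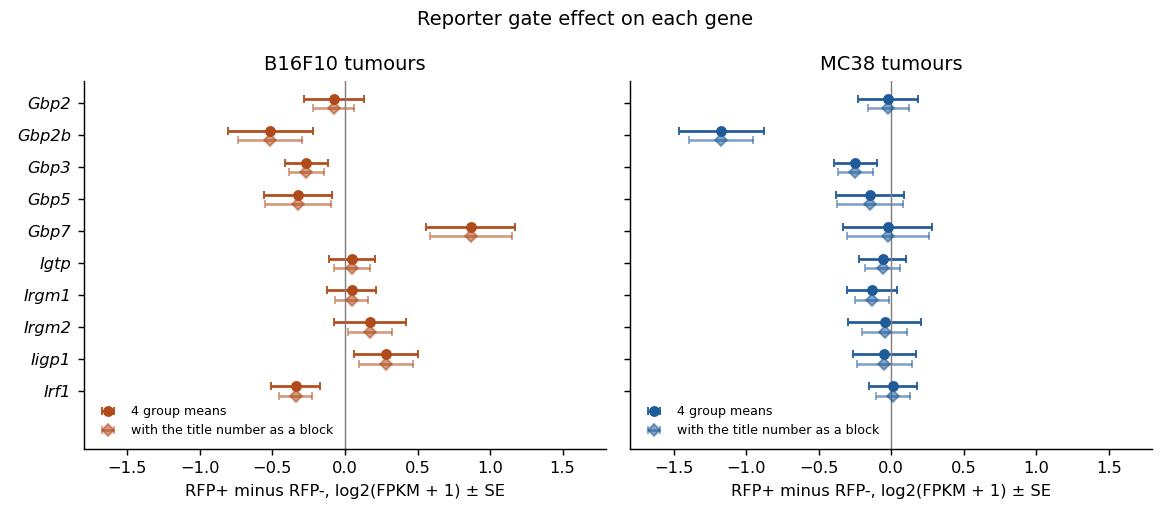
Difference RFP+ minus RFP- in log2(FPKM + 1) for each gene in B16F10 (left) and MC38 tumours (right), from the model of 4 group means (circles) and with the title number as a block (diamonds), with bars of 1 SE. Gbp2b in MC38 (-1.17) and Gbp7 in B16F10 (0.87) lie farthest from 0, and no gene passed in either of these fits.

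Among the interferon and GTPase lists, 0 members passed between the gates of either tumour in limma. With the block, the invariant chain gene Cd74 (-1.25 ± 0.19, limma adjusted p = 0.00863) and the serpin gene Serpina3g (-1.15 ± 0.13, adjusted p = 0.00145) were lower in RFP+ cells of B16F10. Dendritic cell markers were lower there too, 6 of 7 by their mean (median -0.61), with Ccr7 past the threshold with the block (-1.72 ± 0.23, limma adjusted p = 0.00472). With the block, the neutrophil marker Mmp8 and the core genes Itgam and Cd14 were higher and the neutrophil marker Retnlg lower. The part of other cells in these differences was not tested. The nitric oxide synthase gene Nos2 was higher in RFP+ cells of MC38 with the block (1.03 ± 0.18, limma adjusted p = 0.0399). Of the type I targets, Ddx58 was higher in B16F10 with the block (0.96 ± 0.18, limma adjusted p = 0.0309). Cxcl9 was at -0.63 ± 0.22 in B16F10 and -0.37 ± 0.22 in MC38, not past the threshold in either.

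Within MC38, the libraries numbered 3 differed from numbers 1 and 2 in the same manner in both gates. Of the 24 type I interferon targets, 24 were highest in number 3 in both gates, where 18.5% of all genes tested were. Isg15, for one, had 296 and 266 FPKM in the number 3 libraries and 96.5 to 114 FPKM in the other MC38 libraries. The 10 genes did not follow. Gbp2, Gbp2b, Gbp3, Igtp, Irgm1 and Iigp1 were lowest in number 3 in both gates, where 17.4% of all genes were, and Gbp5 and Irgm2 were highest. For Irgm1 the shift in RFP+ cells was only -0.015. Close relatives were not lowest in both gates, but their shifts from the mean of numbers 1 and 2 overlapped those of the 10 genes. On the log2 scale the 10 ran from -0.51 to 0.40 in RFP+ and from -0.69 to 0.40 in RFP- cells. Other GBP genes ran from -0.28 to 0.40 and from -0.030 to 0.33. Other immunity-related GTPase genes ran from -0.28 to 0.15 and from -0.050 to 0.64. Of 5 other GBP genes 0 were lowest and 2 highest, and of 8 other immunity-related GTPase genes 0 and 2. Of 10 signal transduction genes 0 were lowest and 6 highest, and of 18 other interferon gamma targets 5 and 4. Gbp2 in number 3 was 0.49 lower than the mean of numbers 1 and 2 in RFP+ and 0.58 lower in RFP- cells on the log2 scale, and Iigp1 0.51 and 0.26 lower. Gbp5 (0.38 and 0.40) and Irgm2 (0.40 and 0.36) were higher. The type I targets were higher by a median of 0.95 and 1.08. These patterns were noticed in the data and are given without a test, as both number 3 libraries may come from 1 source.

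**Figure D5:**
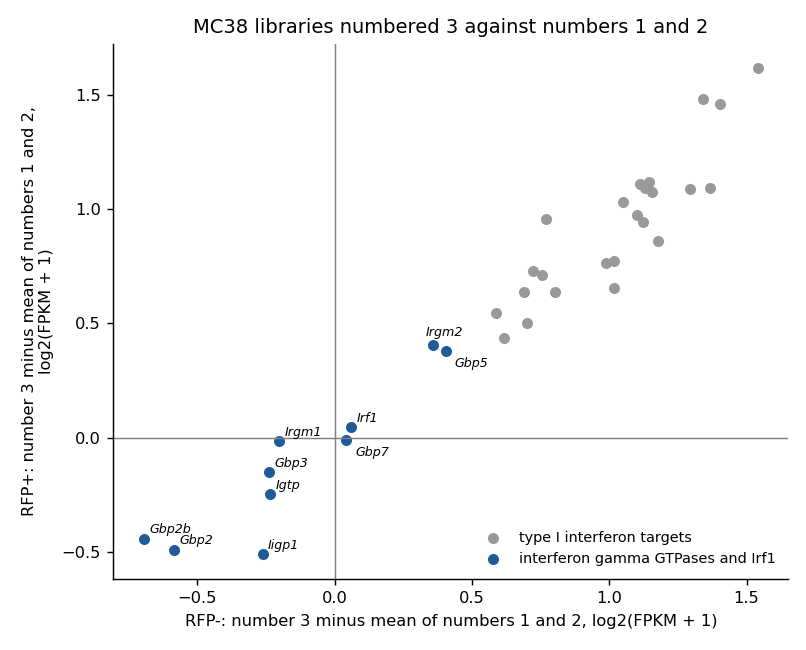
Difference between the MC38 library numbered 3 and the mean of numbers 1 and 2 in log2(FPKM + 1), in RFP- cells (horizontal axis) and RFP+ cells (vertical axis), for 24 type I interferon targets (grey) and the 10 genes (blue, named). The type I targets lie between 0.44 and 1.62 on both axes, while Gbp2, Gbp2b and Iigp1 lie below 0 and Gbp5 and Irgm2 above 0 on both.

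Within B16F10, number 11 was the library number with the lowest core genes (133 and 159 FPKM) and the highest melanocytic sums (10703 and 10711 FPKM). There, Irgm1, Irgm2, Igtp and Irf1 were highest in both gates, while Gbp3 was lowest in both, where 18.4% and 19.2% of all genes were highest and lowest. Of the 16 core genes 13 were lowest and 1 was highest in number 11 in both gates, and 5 of 8 melanocytic genes were highest. Of the type I interferon targets 15 of 24 were highest in number 11 in both gates, as were 3 of 5 other GBP genes and 4 of 8 other immunity-related GTPase genes, and 4 of 5 neutrophil genes were lowest. The part of other cells, tumour cells included, in these levels was not tested.

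Among the genes whose pattern was most like the mean of the 10 over all 12 libraries were Ifi47 (Pearson r = 0.998), Dcn (0.996), Kcna3 (0.995), Itga4 (0.995), Cd34 (0.994), Havcr2 (0.994) and Rhox5 (0.994), of 8054 other genes with a mean of at least 5 FPKM. Their mean levels ran from 10.8 FPKM for Itga4 to 148 FPKM for Ifi47 in MC38, and from 0.1 FPKM for Rhox5 to 25 FPKM for Ifi47 in B16F10. The libraries fall into 2 clusters by tumour, and 11.6% of these genes had r of at least 0.9, so r mainly reads the tumour difference.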

How the data were processed

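RNA from sorted macrophages was sequenced as 12 libraries (SMART-Seq HT cDNA and Nextera XT, per the labels' protocols). The deposited values are FPKM per gene; the submitters' processing notes name TopHat2 2.1.1, Bowtie2 2.2.8, SAMtools 0.1.18, Cuffdiff 2.2.1 and the mm10 build. The treatment of reads shared by genes is not given in the sources used here.

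Rows of the same symbol were summed. Genes reaching 1 FPKM in 3 or more libraries entered the test, on log2(FPKM + 1) with limma 3.58.1 (4 group means, eBayes with trend, two-sided), with Benjamini-Hochberg adjustment over all genes and a threshold of 0.05. The code was tested on simulated data. Same-numbered libraries of the 2 gates deviated together from their group means (r 0.228 to 0.443 over 6 pairs, against -0.306 to 0.0178 for other pairs). Deviations within a group sum to 0, so a higher r in same-numbered pairs lowers that of other pairs by construction. The title number was taken to pair the gates and was used as a block in a further fit. Core scaling divided each library by the geometric mean of 16 macrophage genes. Gene places are from GENCODE M21 and promoter windows from RefSeq. Members and lists were chosen with earlier results of these data known. The text names all members, Ifng, Ifngr1, Ifngr2, Socs1, Cxcl9 and Cxcl10, up to 4 genes of a list past the threshold with the lowest adjusted p, and genes among the 8 most alike by Pearson r; 1 gene of this rule is not reported here. Other list genes, such as Irgq, Wars, Jak1, Stat3, Ptpn2 and Isg15, were chosen after their values were seen. The block with core scaling, the block without the B16F10 number 12 pair, the ratios within libraries and the patterns by library number were added after seeing the data.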

Additional observations from a re-analysis of the deposited data

How the results depend on the processing

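The fall of all 10 genes in B16F10 kept its direction and its call in each gate under other pseudocounts, filters, quantile and upper-quartile scaling, array weights and the replicate block. Under macrophage core scaling 6 of 10 passed in RFP+ cells, where 2.45% of all genes were called lower. With the block as well, 6 passed in RFP+ cells, 8 in RFP- cells and 7 over both gates. There Igtp passed in RFP- cells too (limma adjusted p = 0.0341), while Gbp7 no longer passed over both gates (adjusted p = 0.0846). That fit called 294, 296 and 331 of all 12184 genes lower. The medians under core scaling were -1.31 in RFP+ cells, -1.28 in RFP- cells and -1.20 over both, the shift being built into the scaling. Irgm1 turned to 0.016 in RFP+ cells there. With a pseudocount of 0.1 the medians were -3.32, -3.37 and -3.21, with 5 they were -2.58, -2.59 and -2.62, and quantile normalization gave -3.15 in RFP+ cells. The replicate block without the B16F10 number 12 pair gave -2.71 in RFP- cells. Leaving out 1 library at a time, 10 genes passed each time, and the RFP- median ran from -3.11 to -2.71.

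Between the gates, array weights brought 2 genes past the threshold in B16F10 and 1 in MC38 (2.02% and 0.500% of all genes), and the replicate block without the number 12 pair 1 in each (1.41% and 1.29%), Gbp2b both times (-0.86, adjusted p = 0.0349 in B16F10). The replicate block with all pairs changed none of the calls of the 10 genes, Gbp2b in MC38 staying at -1.17 with the pairing (adjusted p = 0.0581). On the interferon and GTPase lists it added the 4 genes named in the gate comparison and Gbp10 between tumours in RFP- cells, and it changed no other call there within a gate or a tumour. The cause was not tested. Small differences changed sign. In B16F10, Igtp was -0.079 and Irgm1 -0.083 under core scaling, with or without the block, and Irgm1 -0.057 with array weights. In MC38, Irf1 was -0.040 after quantile normalization and -0.086 under core scaling, with or without the block. For the difference of gate effects, Gbp2b was -0.16 with a pseudocount of 0.1, Gbp3 0.039 and Gbp5 0.018 with 5, and Gbp2 0.030 after quantile normalization. Leaving out 1 library gave ranges in B16F10 of -0.26 to 0.029 for Gbp2, -0.10 to 0.16 for Igtp, -0.15 to 0.17 for Irgm1 and -0.079 to 0.37 for Irgm2. In MC38 the ranges were -0.22 to 0.15 for Gbp2, -0.077 to 0.023 for Gbp7, -0.14 to 0.023 for Igtp, -0.18 to 0.073 for Irgm2, -0.14 to 0.12 for Iigp1 and -0.076 to 0.12 for Irf1. For the difference of gate effects they were -0.010 to 0.24 for the median, -0.24 to 0.14 for Gbp2, -0.11 to 0.11 for Gbp3, -0.33 to 0.0057 for Gbp5, -0.045 to 0.22 for Igtp, -0.014 to 0.30 for Irgm1 and -0.033 to 0.42 for Irgm2. Gbp2b and Gbp5 are near or below 1 FPKM in B16F10, where libraries are shallower.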
